A study of Homo sapiens with 6 samples.

Results

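The transcripts of the HIF subunits and of the proteins that govern them by oxygen were followed in BT474, a line of breast cancer cells with ER and HER2, under forced expression of the long non-coding RNA NR2F1-AS1. The members are 10 genes, HIF1A, EPAS1, HIF3A, ARNT, EGLN1, EGLN2, EGLN3, VHL, HIF1AN and CITED2, and every array probe that carried one of these gene names was taken, 14 probes of the 58201 that were not controls. Of these, 13 probes of all 10 genes had, in 1 group or more, both arrays well above background, and these were tested. By the labels, Control cells (called MOCK there) carried empty pcDNA3.1, BT474-Var1 cells the long variant 1 of NR2F1-AS1 in pcDNA3.1, and BT474-Var4 cells its short variant 4. The methods name different backbones, pcDNA3.1/Hygro(+) for variant 1 and pcDNA3.1-P2A-eGFP for variant 4, with the empty form of each as a control. Which of them the Control arrays carried is not stated, so backbone and variant cannot be told apart. The cells had passed through antibiotic selection and were then kept free of antibiotic, in RPMI-1640 with 10% fetal bovine serum. The paper reports that cells given the variants dwindled to few survivors, from which colonies grew. Variant and the selection of survivors therefore cannot be told apart. Each of the 3 populations was represented by 2 arrays. No source says that the 2 arrays of a group came from separate cultures, so the p-values measure the spread between these arrays, which may be technical. Because each array measured the RNA of a whole culture, fewer cells with a transcript and less of it per cell cannot be told apart.

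HIF is a transcription factor made of an oxygen-regulated alpha subunit (HIF1A, EPAS1, which encodes HIF-2alpha, or HIF3A) and the stable partner ARNT, also called HIF-1beta. With oxygen present, the prolyl hydroxylases EGLN1 (PHD2), EGLN2 (PHD1) and EGLN3 (PHD3) mark the alpha subunit, VHL binds the marked protein for ubiquitination and destruction, and HIF1AN (FIH) hydroxylates an asparagine that then blocks the coactivators CBP and p300. CITED2 competes with the alpha subunit for the same coactivators. Oxygen acts on the alpha subunits mainly as proteins, whereas EGLN1, EGLN3 and CITED2 are themselves known HIF-induced genes, so arrays of RNA read the regulators and the targets but not HIF activity at the protein level.

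The share of probes well above background was 47.7% to 57.5% per array, and 31865 probes of 24626 gene names were tested. The 4 probes named NR2F1-AS1 fitted the labels. A_19_P00320140 exceeded Control in BT474-Var1 cells by 6.03 on the log2 scale and A_22_P00006112 by 3.75, and A_24_P51080 exceeded Control in BT474-Var4 cells by 6.92. A_22_P00006111 was higher in both, by 3.36 and 7.98. All 9 luminal epithelial marker genes, among them ERBB2, ESR1 and GATA3, were above background on all 6 arrays. Of the fibroblast, endothelial and leukocyte markers, COL1A2 and COL3A1 were below background on every array, whereas PDGFRB, COL1A1, CDH5, VWF and PTPRC were above it on all 6. All arrays lay on 1 slide, Control and BT474-Var4 in its first column and BT474-Var1 in its second. The column and the BT474-Var1 population therefore cannot be told apart. BT474-Var4 against Control is a comparison within 1 column, but Control lay in rows 1 and 2 and BT474-Var4 in rows 3 and 4. Row and population cannot be told apart there either.

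All 3 prolyl hydroxylase genes and CITED2 rose from Control to BT474-Var1 cells, by 1.69 to 2.66-fold, and HIF1A and ARNT did not pass the test. In BT474-Var4 cells EPAS1 was the member that was higher than in Control, by 1.74-fold, and EGLN2 was lower. Of the 13 tested member probes, 6 passed the test upwards in BT474-Var1 against Control and 1 downwards, at an adjusted p under 0.05 in limma with Benjamini-Hochberg adjustment over all tested probes. Over all tested probes 14.1% passed upwards and 20.3% downwards. With a change of 2-fold or more asked as well, 3 member probes passed, all upwards, against 2.79% of all probes. In BT474-Var4 against Control, 1 member probe passed upwards and 1 downwards, with 9.86% and 14.3% of all probes doing so, and 0 member probes reached 2-fold, against 3.18% of all probes in either direction. In BT474-Var4 against BT474-Var1, 1 member probe passed upwards and 6 downwards, beside 20.4% and 20.8% of all probes, and 4 passed downwards at 2-fold, beside 4.61%. The comparisons with Control share the same 2 Control arrays. Taking the brightest tested probe of each gene, the median log2 change of the 10 members against Control was 0.26 with variant 1 and -0.03 with variant 4, where the medians of all 24584 genes were -0.05 and -0.08.

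**Figure D1:**
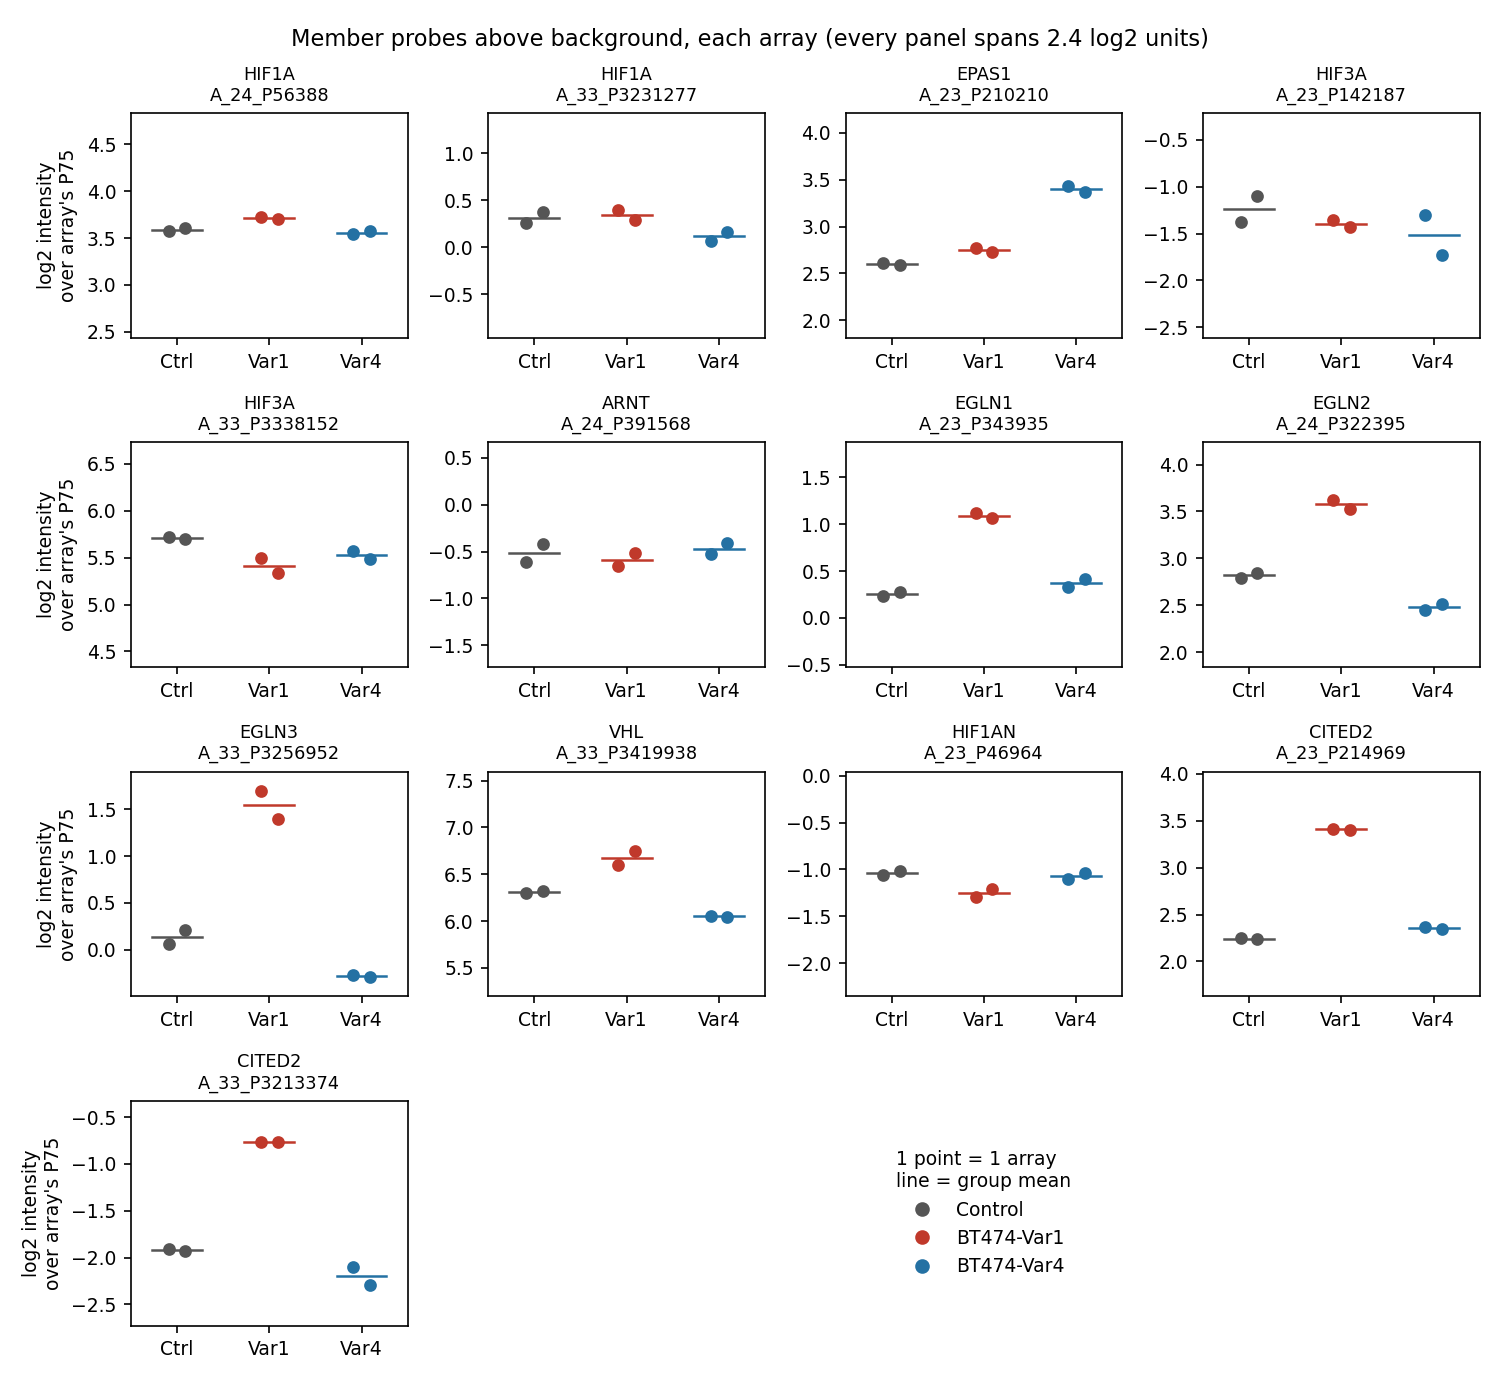
Level of each of the 13 tested member probes on each array, as log2 intensity over the array's 75th percentile (vertical axis, 2.4 log2 units in every panel), in Control (Ctrl), BT474-Var1 (Var1) and BT474-Var4 (Var4) cells, with 1 point per array and a line at the group mean. The BT474-Var1 points of EGLN1, EGLN2, EGLN3 and both CITED2 probes stand above all others, and the BT474-Var4 points of EPAS1 do so. Levels of different panels are not comparable because each probe binds with its own strength.

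Of the alpha subunits, HIF1A was read by 2 probes, both placed on chromosome 14 of hg19, at 62214845 to 62214904 and at 62211472 to 62211531. Levels are given as log2 intensity over the array's 75th percentile. The first, A_24_P56388, is printed 10 times on each array and read 3.58 and 3.60 in Control, 3.73 and 3.71 in BT474-Var1 and 3.54 and 3.58 in BT474-Var4 cells. The BT474-Var1 arrays were the highest and did not overlap with the other groups, but the distance was small: a log2 change of 0.13 (SE 0.05, 95% interval 0.00 to 0.26, adjusted p = 0.113 in limma) against Control. The second, A_33_P3231277, read 0.26 and 0.37 in Control, 0.40 and 0.29 in BT474-Var1 and 0.07 and 0.16 in BT474-Var4 cells. Here Control and BT474-Var1 overlapped, with a log2 difference of 0.03 (95% interval -0.18 to 0.23), and BT474-Var4 was the lowest group, at -0.20 (adjusted p = 0.130). Neither HIF1A probe passed the test in any of the 3 comparisons, and the intervals leave room for changes of up to about 0.4 log2 units. The BT474-Var1 rise of A_24_P56388 passed in 5 of 16 alternative settings, such as quantile normalization. Of these 16, leaving out either array of the group that a comparison does not use gives the same fit as using only the 2 groups compared, so that they hold 14 distinct fits.

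EPAS1 was the alpha subunit with the clearest change, and the change was in BT474-Var4 cells. Its probe, A_23_P210210 at chr2:46613666-46613725 of hg19, read 2.61 and 2.59 in Control, 2.77 and 2.72 in BT474-Var1 and 3.43 and 3.37 in BT474-Var4 cells. Both BT474-Var4 arrays were above the 4 others, which spanned less than the step to them. The log2 change was 0.80 (SE 0.05, adjusted p = 0.00414) against Control and 0.65 (SE 0.05, adjusted p = 0.00273) against BT474-Var1, which are 1.74-fold and 1.57-fold. Both passed in all 16 alternative settings, the first also with only Control and BT474-Var4 in the fit (adjusted p = 0.0173). These 2 groups lay in 1 slide column but in different rows. BT474-Var1 stood slightly above Control, by 0.15 (adjusted p = 0.102), a difference that passed in 3 of 16 alternative settings.

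HIF3A, whose protein forms include inhibitors of the other alpha subunits, was read by 3 probes, of which 2 were tested. A_23_P338534, at position 1331 of the annotated transcript, was below background on all 6 arrays and has no measured difference. A_23_P142187, at position 5478 of the same transcript, read -1.38 and -1.10 in Control, -1.36 and -1.43 in BT474-Var1 and -1.30 and -1.73 in BT474-Var4 cells, so all 3 groups overlapped. The third, A_33_P3338152, is assigned to the transcript ENST00000475432 and read 5.72 and 5.70 in Control, 5.49 and 5.34 in BT474-Var1 and 5.57 and 5.49 in BT474-Var4 cells. The Control arrays were the highest, and the fall in BT474-Var1 cells was -0.30 (SE 0.07, adjusted p = 0.0412). That call was lost in 11 of 16 alternative settings, among them leaving out any 1 of the 6 arrays, with adjusted p between 0.0515 and 0.168. As 1 of 3 HIF3A probes was never above background, what the bright probe says of HIF3A as a whole was not tested.

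ARNT, the shared partner, showed no passing difference. A_24_P391568, at chr1:150783044-150783103, read -0.61 and -0.42 in Control, -0.66 and -0.52 in BT474-Var1 and -0.53 and -0.41 in BT474-Var4 cells. The groups overlapped, and the log2 differences from Control were -0.08 (95% interval -0.34 to 0.19) and 0.05 (95% interval -0.22 to 0.31).

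The genes with the clearest rise in BT474-Var1 cells were the prolyl hydroxylases and CITED2, and their upstream sequences are shown because these 4 genes moved in the same direction. The sequences are the 250 bases before the annotated start, 5' to 3' on the gene's strand, from RefSeq on GRCh38.p14. Where a gene has several starts the outermost is used, which applies to EGLN2 (2 starts) and CITED2 (3 starts). EGLN1 lies at chr1:231422288-231422537 on the minus strand, EGLN2 at chr19:40798941-40799190 on the plus strand, EGLN3 at chr14:33951075-33951324 on the minus strand and CITED2 at chr6:139374649-139374898 on the minus strand. Capitals mark ACGTG and GCGTG, the core letters of the hypoxia response element to which HIF binds, read on both strands.
EGLN1: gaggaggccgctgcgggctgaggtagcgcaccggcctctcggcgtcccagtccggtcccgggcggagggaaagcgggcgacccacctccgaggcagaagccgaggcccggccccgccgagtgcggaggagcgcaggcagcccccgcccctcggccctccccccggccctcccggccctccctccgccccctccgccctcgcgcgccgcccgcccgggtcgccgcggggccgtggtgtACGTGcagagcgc
EGLN2: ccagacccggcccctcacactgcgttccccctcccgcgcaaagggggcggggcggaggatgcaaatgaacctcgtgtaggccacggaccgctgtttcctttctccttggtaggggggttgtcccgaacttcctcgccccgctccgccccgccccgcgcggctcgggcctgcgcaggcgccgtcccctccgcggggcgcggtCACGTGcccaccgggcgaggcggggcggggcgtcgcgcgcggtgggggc
EGLN3: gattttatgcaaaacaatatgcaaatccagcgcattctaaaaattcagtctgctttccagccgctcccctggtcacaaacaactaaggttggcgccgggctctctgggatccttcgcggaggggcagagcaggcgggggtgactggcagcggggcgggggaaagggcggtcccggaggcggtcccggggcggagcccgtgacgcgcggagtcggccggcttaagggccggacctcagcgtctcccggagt
CITED2: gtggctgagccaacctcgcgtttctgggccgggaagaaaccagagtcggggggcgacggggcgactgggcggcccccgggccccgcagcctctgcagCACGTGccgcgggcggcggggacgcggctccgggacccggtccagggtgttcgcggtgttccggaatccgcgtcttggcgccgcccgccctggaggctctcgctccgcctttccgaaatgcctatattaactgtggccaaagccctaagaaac
EGLN1 holds ACGTG once, starting 13 bases before the transcript start. EGLN2 and CITED2 each hold CACGTG, which contains ACGTG on both strands, starting 49 and 153 bases before the start. The EGLN3 window holds neither motif. Of all 35116 windows of this length in the table, 18.5% hold ACGTG, 32.2% hold GCGTG and 43.2% hold at least 1 of them, so that a match is a common feature of promoters and a description only. Of the members that did not rise in BT474-Var1 cells, the outermost windows of HIF1A and EPAS1 hold GCGTG once, that of HIF3A 3 times, and those of ARNT and HIF1AN hold neither.

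EGLN1, the main oxygen sensor among the 3 hydroxylases, was read by A_23_P343935 at chr1:231502149-231502208 of hg19. It read 0.23 and 0.28 in Control, 1.12 and 1.07 in BT474-Var1 and 0.33 and 0.42 in BT474-Var4 cells. Both BT474-Var1 arrays stood apart from the 4 others. EGLN1 rose 1.79-fold from Control to BT474-Var1 cells (log2 change 0.84, SE 0.06, adjusted p = 0.00377). In BT474-Var4 cells the log2 difference from Control was 0.12 (95% interval -0.04 to 0.28, adjusted p = 0.202), and BT474-Var4 was lower than BT474-Var1 by 0.72 (adjusted p = 0.00268).

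EGLN2 was the member that passed in opposite directions in the 2 populations. Its probe A_24_P322395 covers 60 bases across a splice junction, between 41313434 and 41313750 on chromosome 19 of hg19. The file also assigns it to the read-through transcript of RAB4B and EGLN2, which the probe cannot tell from EGLN2. Levels were 2.79 and 2.85 in Control, 3.62 and 3.53 in BT474-Var1 and 2.45 and 2.51 in BT474-Var4 cells, and no groups overlapped. Against Control, EGLN2 rose 1.69-fold in BT474-Var1 cells (log2 change 0.76, SE 0.06, adjusted p = 0.00440) and was 1.27-fold lower in BT474-Var4 cells (log2 change -0.34, SE 0.06, adjusted p = 0.0253). The direct difference between the populations was 2.14-fold (adjusted p = 0.00148). The rise passed in all 16 alternative settings. The fall passed in 10 of 16 and was lost on leaving out either Control array or either BT474-Var4 array, with the replicate letter as a block and with no filter on dim probes, at adjusted p between 0.0605 and 0.139.

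EGLN3, a strongly hypoxia-induced hydroxylase, had the widest range of group means among the members. A_33_P3256952, at chr14:34393422-34393481 of hg19, read 0.06 and 0.21 in Control, 1.69 and 1.40 in BT474-Var1 and -0.27 and -0.29 in BT474-Var4 cells. The order was BT474-Var1, Control, BT474-Var4 with no overlap, and the 2 BT474-Var1 arrays were 1.23-fold apart. The rise in BT474-Var1 cells was 2.66-fold (log2 change 1.41, SE 0.12, adjusted p = 0.00454). The difference of BT474-Var4 from Control was -0.41 (SE 0.12, adjusted p = 0.0688), which passed in 6 of 16 alternative settings, 3 of which are the same fit with only these 2 groups (adjusted p = 0.0462). BT474-Var4 was 3.55-fold below BT474-Var1 (adjusted p = 0.00181). With up to 6 mismatches over 28 bases, 7 other probes of the array carry a stretch like one of this probe. Of these, 3 were tested. Their median log2 change against Control was 0.47 (range 0.02 to 1.14) with variant 1 and -0.23 with variant 4, with 0 calls in either comparison. Between the populations they moved in the same direction as EGLN3, with a median of -1.15 (range -1.36 to -0.16) and 1 of the 3 called lower, beside -1.83 for EGLN3. The part of such shared sequence in the EGLN3 value was not tested.

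VHL was read by 1 very bright probe, A_33_P3419938 at chr3:10193621-10193680 of hg19. It read 6.30 and 6.32 in Control, 6.60 and 6.75 in BT474-Var1 and 6.06 and 6.05 in BT474-Var4 cells, in the same order as EGLN2 and EGLN3 and without overlap. The log2 change was 0.36 in BT474-Var1 cells (SE 0.07, adjusted p = 0.0192) and -0.26 in BT474-Var4 cells (SE 0.07, adjusted p = 0.0564), and the direct difference was 0.62 (adjusted p = 0.00456), or 1.54-fold. The rise was lost without Control replicate A, Control replicate B or BT474-Var1 replicate B and with no filter on dim probes, at adjusted p between 0.0604 and 0.105. The probe begins with the following 28 bases, shown because they resemble the abundant Alu repeat.
VHL probe: tgtaatcctagctacttggcaggctgag
With up to 6 mismatches, 13 other probes of the array carry a stretch like it, all of them tested. Their median log2 change was -0.19 (range -0.47 to 0.46) with variant 1 and 0.07 (range -0.31 to 0.17) with variant 4. These medians were of opposite sign to the VHL probe, but both ranges hold changes in its direction. In BT474-Var1 cells 2 of the 13 passed upwards and 4 downwards, and in BT474-Var4 cells 0 upwards and 1 downwards. How much repeat-bearing RNA adds to the VHL signal was not tested.

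HIF1AN, the asparaginyl hydroxylase, showed no passing difference. A_23_P46964, at chr10:102309134-102309193 of hg19, read -1.06 and -1.01 in Control, -1.30 and -1.21 in BT474-Var1 and -1.11 and -1.04 in BT474-Var4 cells. Both BT474-Var1 arrays were the lowest, at -0.21 from Control (95% interval -0.38 to -0.05, adjusted p = 0.0559). That difference passed in 2 of 16 alternative settings and was -0.11 under normexp background correction.

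CITED2 was read by 2 probes about 1 kb apart on chromosome 6 of hg19, and they changed alike in BT474-Var1 cells. A_23_P214969, at 139693592 to 139693651, read 2.24 and 2.24 in Control, 3.41 and 3.40 in BT474-Var1 and 2.37 and 2.35 in BT474-Var4 cells. A_33_P3213374, at 139694612 to 139694671, read -1.91 and -1.93 in Control, -0.76 and -0.77 in BT474-Var1 and -2.10 and -2.29 in BT474-Var4 cells. On both probes the BT474-Var1 arrays were far above the others. The rise against Control was 2.24-fold on the first probe (log2 change 1.17, SE 0.05, adjusted p = 0.00244) and 2.23-fold on the second (log2 change 1.15, SE 0.08, adjusted p = 0.00369). Both passed in all 16 alternative settings, although normexp background correction brought the dimmer second probe to 0.50. In BT474-Var4 cells the probes lay on opposite sides of Control, at 0.12 (adjusted p = 0.142) and -0.28 (adjusted p = 0.0684), and neither difference passed. BT474-Var4 was below BT474-Var1 by 1.05 on the first probe (adjusted p = 0.00120) and by 1.43 on the second (adjusted p = 0.00144).

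**Figure D2:**
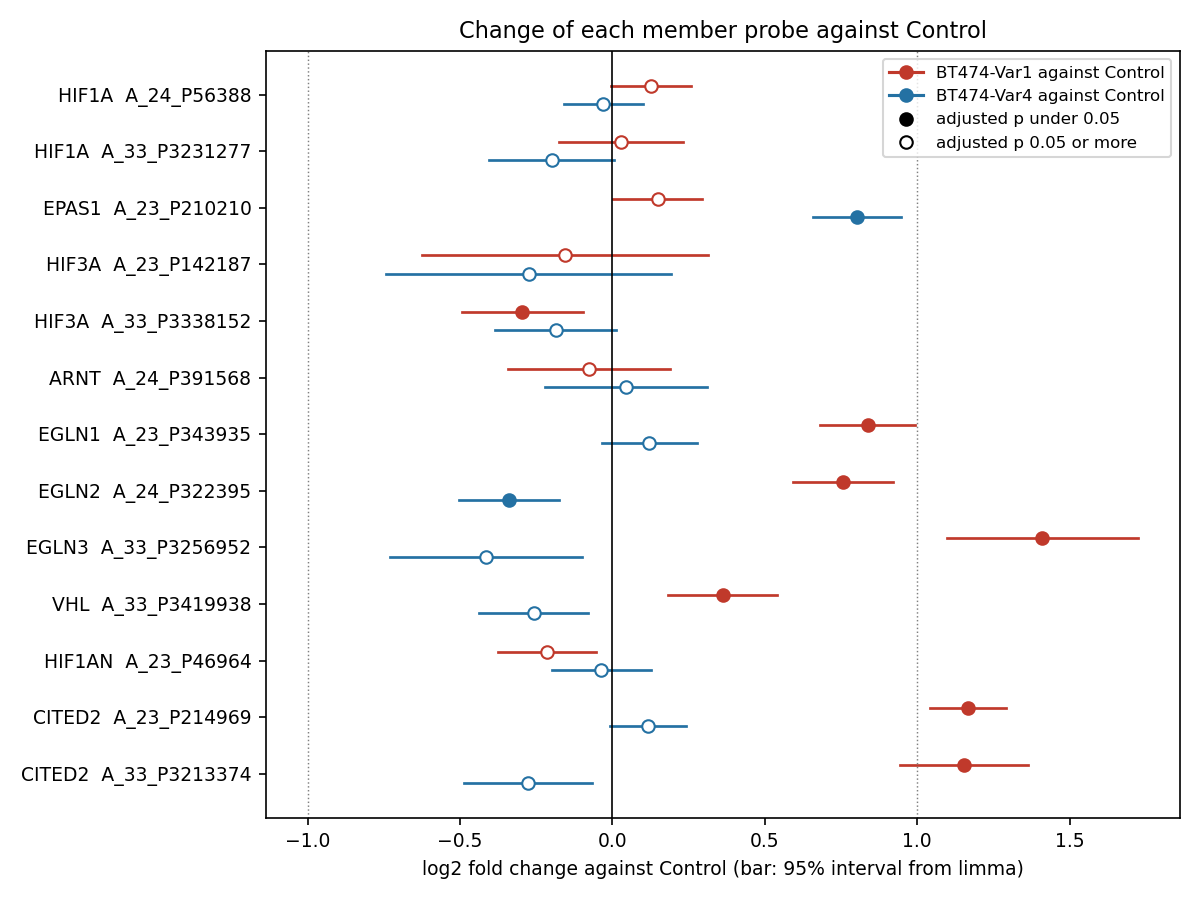
Log2 fold change of each tested member probe against Control (horizontal axis, points) in BT474-Var1 and BT474-Var4 cells, with the 95% interval from limma as a bar; filled points passed an adjusted p of 0.05 and dotted lines mark a 2-fold change. In BT474-Var1 cells EGLN3 and both CITED2 probes lie beyond 2-fold, and in BT474-Var4 cells EPAS1, at 0.80, is the point farthest from 0.

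The direct comparison of the 2 populations is the difference of their comparisons with Control and uses the same arrays. EGLN1, EGLN2, EGLN3, VHL and CITED2 were lower with variant 4 than with variant 1, EPAS1 was higher, and HIF1A, HIF3A, ARNT and HIF1AN did not pass. The 7 probes that passed this comparison did so in all 16 alternative settings. The HIF1A difference, -0.16 on A_24_P56388 (adjusted p = 0.0618), passed in 6 of 16.

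Other genes of the pathway were counted from lists set for the analysis, with the brightest tested probe for each gene. Of 24 tested regulators beyond the members (subunits of the VHL ligase, coactivators, chaperones, other ubiquitin ligases and deubiquitinases), 3 were higher and 9 lower in BT474-Var1 than in Control cells, and 4 were higher and 2 lower in BT474-Var4 cells. Their median log2 changes were -0.20 and -0.01. Among all genes 14.2% were higher and 20.7% lower in BT474-Var1, and 10.2% and 14.6% in BT474-Var4 cells. HSP90AB1, a chaperone of the HIF alpha subunits, was the regulator of this list that reached 2-fold in a comparison. It read 6.43 and 6.39 in Control, 5.46 and 5.41 in BT474-Var1 and 6.88 and 6.94 in BT474-Var4 cells. It fell by 0.97 in BT474-Var1 cells (adjusted p = 0.00306) and rose by 0.50 in BT474-Var4 cells (adjusted p = 0.00902), and BT474-Var4 stood 1.47 above BT474-Var1 (adjusted p = 0.00120).

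Genes known as HIF targets, none of them a member, were read next. Of 29 tested target genes, 23 were higher and 1 lower in BT474-Var1 than in Control cells, beside 14.2% and 20.7% of all genes. Of the 23 genes, 17 rose by 2-fold or more, as did 2.79% of all tested probes, a share counted by probe and not by gene. The median log2 change of the 29 was 1.23. The 23, the 17 and the median include ANGPTL4 and CA9, taken up below. These met the filter only through the BT474-Var1 arrays, so their place in these counts is no support for a rise. In BT474-Var4 cells 6 were higher and 3 lower, beside 10.2% and 14.6% of all genes. The median was -0.04, and 1 gene, ANGPTL4, reached 2-fold by its fitted change. ANGPTL4 is counted among the 6, although it was well above background on 1 of the 2 BT474-Var4 arrays. The BT474-Var4 median was thus close to the -0.08 of all genes. The list was assembled with earlier results of these arrays known, and its direction is not independent evidence. NDRG1, a hypoxia-induced stress gene, read 4.38 and 4.40 in Control, 7.51 and 7.53 in BT474-Var1 and 4.42 and 4.46 in BT474-Var4 cells, a log2 change of 3.12 (adjusted p = 0.000844) in BT474-Var1 cells. BHLHE40 encodes a hypoxia-responsive repressor, and its log2 change was 3.24 (adjusted p = 0.00197) with variant 1 and 0.75 (adjusted p = 0.0131) with variant 4. For ADM, which encodes the vasodilator adrenomedullin, the changes were 2.0 (adjusted p = 0.00180) and 0.59 (adjusted p = 0.00639). ANGPTL4, a lipoprotein lipase inhibitor, and CA9, a membrane carbonic anhydrase, were not well above background in Control cells. Both met the filter only through the BT474-Var1 arrays, so no p-value is given for them. Their folds take the dimmest well-above-background probes of the Control arrays as the Control level. They are approximate, because that level is not a strict limit. So taken, ANGPTL4 was 17.1-fold and CA9 2.63-fold higher in BT474-Var1 cells. In BT474-Var4 cells ANGPTL4 was well above background on 1 of 2 arrays, which read -3.19 and -3.45, and no fold is given.

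**Figure D3:**
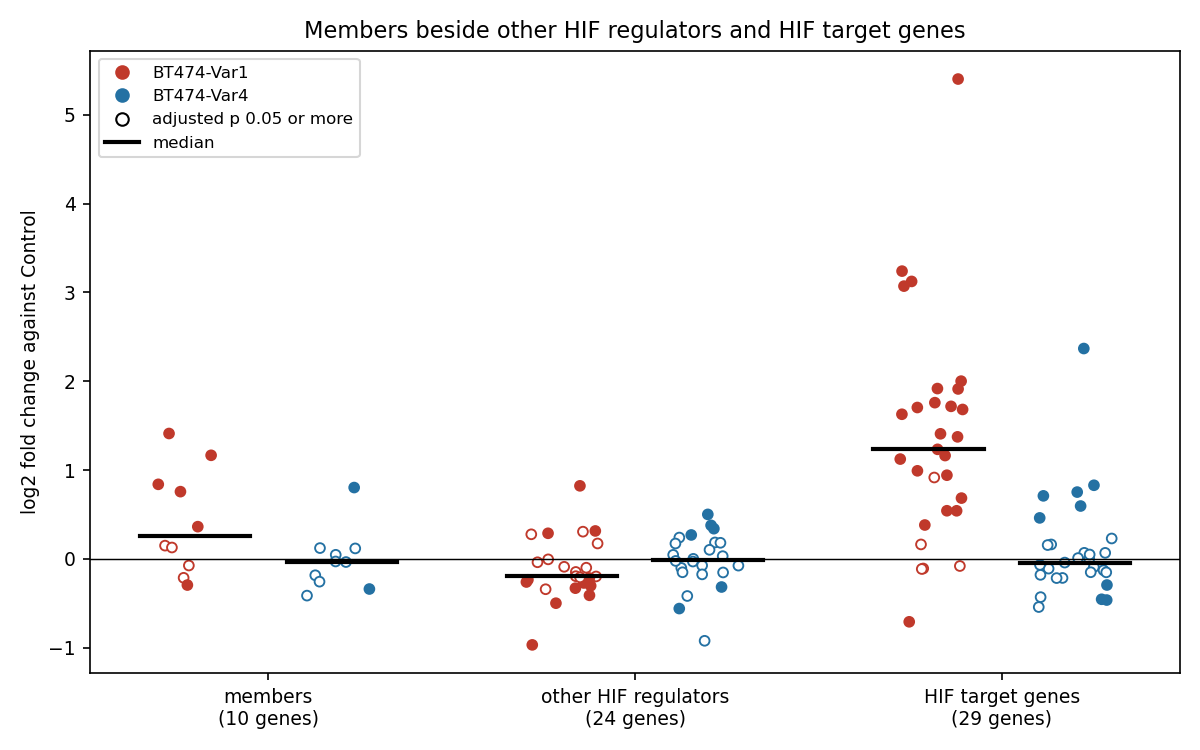
Log2 fold change against Control (vertical axis) of the 10 members, 24 other HIF regulators and 29 HIF target genes, 1 point per gene by its brightest tested probe, in BT474-Var1 and BT474-Var4 cells; filled points passed an adjusted p of 0.05 and bars are medians. The target genes of BT474-Var1 cells have a median of 1.23, and the other 5 medians lie between -0.20 and 0.26. ANGPTL4 and CA9 are drawn at their fitted changes.

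The member with the widest range of group means, EGLN3, was used to look for genes of like pattern. Among 1877 non-member probes of 1731 gene names that were above background on all arrays with a range of at least 1 log2 unit, the 5 with the highest Pearson r over the 6 arrays were FLCN (0.998), CLCA2 (0.997), PSCA (0.997), PPP2R5C (0.997) and ENST00000530576 (0.996). FLCN, the folliculin tumour suppressor, averaged 0.85 in Control, 1.73 with variant 1 and 0.58 with variant 4. With 2 arrays in each of 3 groups such values are mainly a match of the group means, and 28 genes exceeded 0.99.

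**Figure D4:**
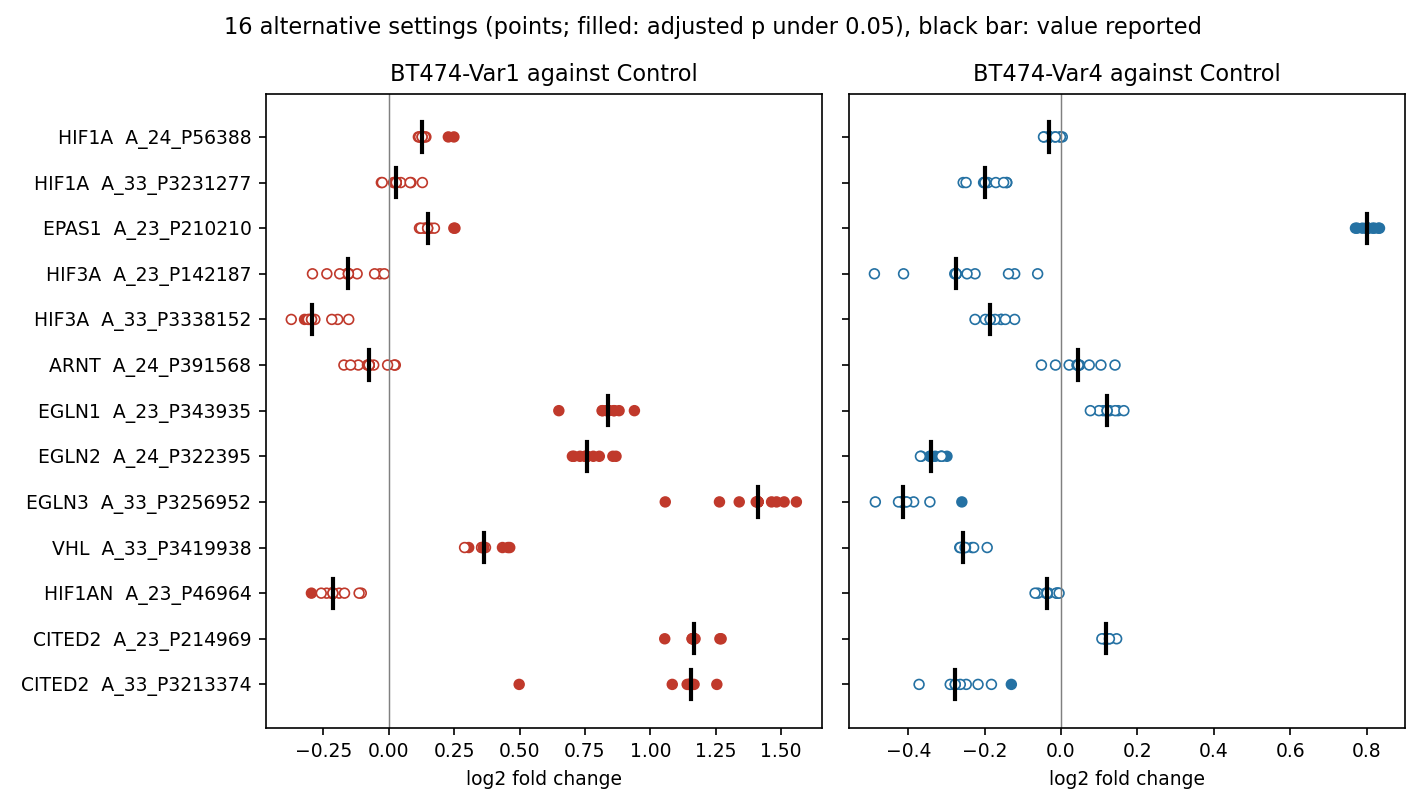
Log2 fold change (horizontal axis, scaled apart for each panel) of each tested member probe against Control in BT474-Var1 cells (left) and BT474-Var4 cells (right) under 16 alternative settings of the analysis, 1 circle per setting, filled where the adjusted p was under 0.05, with a black bar at the value reported; circles with equal changes lie on each other. EGLN1, EGLN2, EGLN3 and CITED2 stay above 0 in BT474-Var1 cells and EPAS1 stays above 0 in BT474-Var4 cells, with filled circles throughout, and those of HIF1A, HIF3A and ARNT lie closer to 0.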

How the data were processed

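Cy3-labeled RNA was read on Agilent arrays of 1 color. Spots were quantified by the authors in Agilent Feature Extraction 11.5.1.1, and the deposited files of each array hold intensity values on a linear scale, background-subtracted and detrended within the array but not normalized between arrays. The deposited table holds log2 values that the authors shifted to each array's 75th percentile in GeneSpring. The header and the methods give different design numbers. Probe positions are those of the headers (hg19), and gene names are those of the array's design.

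Here the log2 of the processed intensity, less the 75th percentile over non-control probes, was used. Outlier spots were left out (63 to 128 per array, 0 saturated) and spots of a probe averaged. limma 3.58.1 in R 4.3.3 fitted 1 mean per group to all 6 arrays. P-values were adjusted by Benjamini-Hochberg over tested probes, and a probe passed at 0.05. The pipeline was tested on simulated data, in which far fewer probes changed than passed here. It recovered 56% of the probes shifted by 1 log2 unit and 82% of those shifted by 2. With so different a share of changed probes, these rates do not carry over to the members. A member that did not pass may still differ within its interval. Of such intervals the lowest reached -0.74 (HIF3A A_23_P142187, BT474-Var4 against Control) and the highest 0.39 (ARNT, BT474-Var4 against BT474-Var1). Tried instead were normexp (offset 50) for the background, quantiles for the scaling, the percentile over probes above background on all arrays, no filter, a stricter filter on every array, the deposited log2 table, a block for the replicate letter, a trended robust fit, a fit of just the 2 groups in question, an unmoderated one-way analysis of variance as in the methods, and each array left out in turn. A left-out array leaves its group with 1 array, assumed to vary like the other groups. The members and lists were chosen with earlier results of these data known. Named genes of a list were those at 2-fold and an adjusted p under 0.05 in a comparison, at most 5, ranked by the larger change against Control. RefSeq promoter windows were matched by symbol, 9 of 10 members, without VHL. The number of arrays limits the precision.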

Additional observations from a re-analysis of the deposited data

Results flagged for a closer look

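BT474-Var4 and BT474-Var1 cells differed, by the direct test in limma, on 7 of 13 tested member probes, 6 of them lower in BT474-Var4. Over all tested probes 20.4% passed upwards and 20.8% downwards in this comparison. Variant, backbone and slide column cannot be told apart in it. BT474-Var4 minus BT474-Var1 was 0.65 log2 units for EPAS1, -0.72 for EGLN1, -1.10 for EGLN2, -1.83 for EGLN3, -0.62 for VHL, and -1.05 and -1.43 for the CITED2 probes A_23_P214969 and A_33_P3213374.

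A signal outside the member probes lay next to HIF1A. The probe A_22_P00016430, which the file assigns to the transcript ENST00000554254 on the strand opposite to HIF1A, at chr14:62217603-62217662 of hg19, exceeded Control in BT474-Var1 cells by 2.07 log2 units (SE 0.15, adjusted p = 0.00385 in limma, range over 16 alternative settings 2.77e-08 to 0.0351).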

How the results depend on the processing

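Of 624 values of member probes under alternatives, 560 kept their direction and their side of the threshold, 21 fell short of it, 34 newly passed and 9 changed sign, none of the 9 called in either setting. The sign changes were HIF1A A_24_P56388 in BT474-Var4 against Control under normexp (0.0034), HIF1A A_33_P3231277 in BT474-Var1 against Control without Control replicate A (-0.029) and without BT474-Var1 replicate A (-0.025), HIF3A A_23_P142187 in BT474-Var4 against BT474-Var1 under quantile normalization (0.012) and without BT474-Var4 replicate B (0.094), ARNT in BT474-Var1 against Control with the percentile over bright probes (0.025) and without Control replicate B (0.021), and ARNT in BT474-Var4 against Control without Control replicate A (-0.051) and without BT474-Var4 replicate B (-0.014). With an array left out these 4 values ran from -0.029 to 0.085, from -0.33 to 0.094, from -0.17 to 0.021 and from -0.051 to 0.14. The cause was not tested.

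Member probes that passed in BT474-Var4 against Control numbered 2, but 5 under normexp, 5 with all 6 arrays above background, 5 with the trended robust fit, 1 with no filter, 1 with the replicate block, and 1 to 3 with an array left out (1 without either Control or either BT474-Var4 array). Over all probes this comparison gave 7712, and 10896, 8711, 11427, 722 and 4905 in the first 5 settings above, in that order. There the member counts moved the same way. Members rose to 3, but all probes fell, with only these 2 groups fitted (5473) and by the analysis of variance (5179). At 2-fold, BT474-Var4 against BT474-Var1 gave 4, and 2 under normexp. Leaving out an array gave 5 to 6 in BT474-Var1 against Control and always 7 between the variants, and at 2-fold always 3, 0 and 4 in the 3 comparisons.

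Over all probes, 10962 passed in BT474-Var1 against Control, 7712 in BT474-Var4 against Control and 13117 between the variants, the order kept below. With no filter they were 2672, 722 and 5112, where more probes enter the adjustment. The replicate block gave 4905 in BT474-Var4 against Control. An array left out gave 4174 to 9406, 1502 to 5473 and 8090 to 10690: without replicate A and B, in turn, of Control 4174 and 4523 in the first comparison and 1561 and 1502 in the second, of BT474-Var1 5835 and 5970 in the first and 8205 and 8337 in the third, and of BT474-Var4 3005 and 2502 in the second and 8705 and 8090 in the third. At 2-fold the counts were 1260, 1013 and 2191, with 172, 153 and 364 under normexp, 674, 570 and 1213 with all 6 arrays above background, 494 in BT474-Var4 against Control with no filter and 634 by the methods' analysis of variance. An array left out gave 1006 to 1231, 653 to 956 (666 and 653 without Control replicate A and B) and 1924 to 2195. The share of upward calls in BT474-Var1 against Control was 40.9%, and 59.1% with the percentile over bright probes. At 2-fold the shares of upward calls were 70.5%, 50.2% and 33.0%, but 56.6%, 61.5% and 50.5% under quantile normalization, 63.4%, 61.4% and 52.5% under normexp and 81.4%, 54.5% and 26.2% with the percentile over bright probes, which moved the median of all probes in BT474-Var4 against BT474-Var1 to -0.11.

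The replicate letters A and B did not pair the samples, as the correlations of same-letter deviations were -0.01, 0.05 and -0.02. With the letter as a replicate block EGLN2 in BT474-Var4 against Control lost its call (adjusted p = 0.0605), and no other member call changed.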

Other observations

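Non-member probes within 10000 bases of a member probe were listed, a search chosen after member values were seen. It found 4 probes, all on the strand opposite to the member. The transcript ENST00000554254, 2758 bases from the nearer HIF1A probe, read -1.67 and -1.55 in Control, 0.48 and 0.45 in BT474-Var1 and -1.75 and -2.17 in BT474-Var4 cells. Both BT474-Var1 arrays were 4.21-fold above Control on average, whereas HIF1A itself did not pass the test. In BT474-Var4 cells the difference from Control was -0.35 (adjusted p = 0.165 in limma). HIF1A-AS1, another antisense transcript of this gene by name, differed from Control by -0.04 with variant 1 and -0.42 with variant 4 and did not pass in either.

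Next to EGLN1, a probe of lnc-C1orf124-2, A_22_P00002620, read -3.43 and -2.95 in Control, -2.29 and -2.61 in BT474-Var1 and -3.18 and -2.93 in BT474-Var4 cells, a log2 difference of 0.74 in BT474-Var1 cells (adjusted p = 0.0574 in limma). The second probe of that transcript was below background on every array. Next to EPAS1, ENST00000418415 was above background on 3 of 6 arrays and differed from Control by 0.41 and -0.27 in BT474-Var1 and BT474-Var4 cells, neither of which passed.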
